A study of Homo sapiens with 11 samples.

Results

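The early response of MDA-MB-231 cells to an siRNA against MASTL was followed in the RNA taken 24 h after transfection. MDA-MB-231 is an established human line of triple-negative breast cancer cells. The comparison used 5 of the 11 arrays of the study, namely 3 of cells given a non-targeting control siRNA (replicates 1, 2 and 3) and 2 of cells given the MASTL siRNA (replicates 1 and 3). The other 6 arrays, 3 of each treatment, were taken at 48 h (replicates 1, 3 and 4), and they served for the estimate of the spread and for a second look at the genes called at 24 h. All groups shared the cell line, the medium and the lipid transfection reagent, and no untransfected cells were analysed here. MASTL was targeted by 1 siRNA sequence, in 1 cell line, and a 24 h MASTL siRNA array numbered 2 was not analysed here. The labels do not say whether replicates came from separate cultures, so the p-values measure the spread between these arrays, which may be technical. Arrays were chosen by their labels, and for each gene the probe with the highest mean over the 11 arrays was used.

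MASTL, also called Greatwall, is a kinase that phosphorylates the small proteins ENSA and ARPP19. Phosphorylated ENSA and ARPP19 bind and inhibit protein phosphatase PP2A carrying a B55 regulatory subunit, and this keeps the substrates of cyclin B-CDK1 phosphorylated from mitotic entry until exit. In breast cancer cells the kinase has been linked to proliferation, contractility and adhesion. An siRNA is loaded into an Argonaute protein, and its guide strand directs the cutting of a matching messenger RNA. Bases 2 to 8 of the guide, the seed, can also pair with other messenger RNAs in the way a microRNA does.

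The siRNA sequence is shown because 1 sequence stands behind every MASTL siRNA array. It is given first as the target strand stated in the labels and then as the reverse complement, the guide strand, both 5′ to 3′ in DNA letters. Capitals mark the seed in the guide and the stretch of the target strand that pairs with it.
MASTL siRNA, target strand: acgccttattctaGCAAATTa
MASTL siRNA, guide strand: tAATTTGCtagaataaggcgt
The seed was the same as that of 0 of 2545 mature human microRNAs in the RefSeq table. Whether transcripts of the genes described below hold a match to the seed was not analysed here, and a second MASTL siRNA or a rescue was not analysed here, so loss of MASTL and other effects of the siRNA cannot be told apart in these data.

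Values were the authors' normalised log2 values. Each array had 22992 of 47321 probes above a noise limit of 7.408, and the centre of the noise lay at 7.356. All 6 genes taken as markers of MDA-MB-231 (VIM, CD44, EGFR, AXL, CAV1 and MSN) were above the limit on all 5 arrays, CD44 at 12.4 to 12.6. Among the luminal breast markers, ESR1 and PGR were above it on no array, while GATA3 at 7.52 to 7.65 and FOXA1 at 7.74 to 7.98 were above it on all 5. Of the leukocyte markers, PTPRC was above the limit on no array, CD3D on 1 and CD14 on 5, at 7.90 to 8.46. Endothelial CDH5 and VWF were above it on none, and PECAM1 on 5 at 7.46 to 7.77. Of the fibroblast markers, COL3A1 and LUM were above it on none, COL1A1 on 4 and DCN on 3. The 5 arrays correlated within groups at 0.992 to 0.9965 and between groups at 0.9891 to 0.9956, and the pair of control replicate 3 and MASTL siRNA replicate 3 stood at 0.9956. The median SD over features was 0.042 in controls (n = 3) and 0.031 with MASTL siRNA (n = 2).

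MASTL itself read 8.74, 8.73 and 8.64 on the control arrays and 7.61 and 7.69 on the MASTL siRNA arrays. Both MASTL siRNA arrays lay below all controls and close above the noise limit. The log2 change was -1.05 ± 0.091 (SE), a 2.08-fold fall, with an adjusted p of 0.00138 in limma. A second MASTL probe changed by -0.62 (adjusted p 0.0142 as a feature of its own). In these bulk RNA samples, fewer cells that express a gene and less of its RNA per cell cannot be told apart. Values near the noise limit can understate a fall.

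MASTL was the only one of 18 listed genes of the Greatwall and PP2A-B55 axis to pass the test. The list holds the kinase, ENSA and ARPP19, and subunits and inhibitors of the phosphatase. The median change of the 18 was -0.02, beside 0.003 for all features tested, and 10 of the 18 changes were negative. The highest change was 0.23, for BOD1. Across the whole array, 145 features were called lower, 0.649% of the 22329 tested, and 53 were called higher, 0.237%, at an adjusted p under 0.05. Of these, 123 and 52 were genes with 1 symbol.

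The falls were the larger part of the early response in number and in size. Their median log2 change was -0.59, and 73 of the 145 exceeded 1.5-fold and 13 exceeded 2-fold. The rises had a median of 0.31, or 1.24-fold, with 4 of 53 past 1.5-fold and 0 past 2-fold. Called features were also brighter than most, with median levels over the 11 arrays of 8.83 for falls and 8.71 for rises against 7.62 for all features. The 5 arrays did not overlap between groups for any called feature. Over all features tested, 11.7% had both MASTL siRNA arrays below the 3 controls and 13.4% had them above. At an unadjusted p under 0.05 there were 2021 features.

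**Figure D1:**
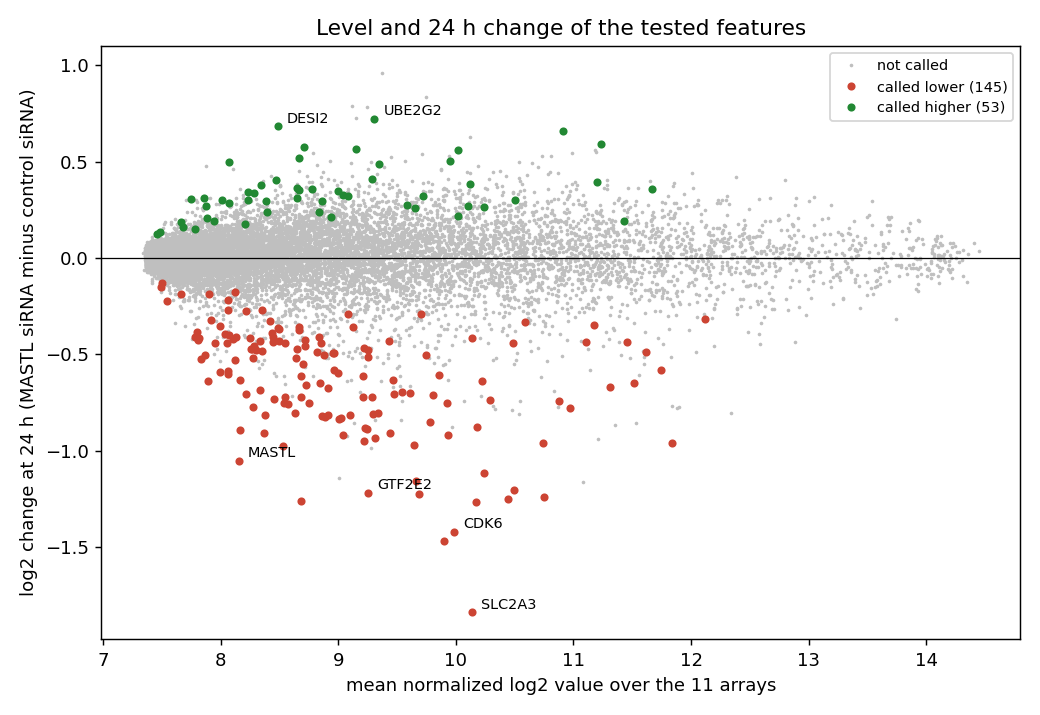
Each point is a tested feature, with its mean normalised log2 value over the 11 arrays on the x axis and its log2 change at 24 h (MASTL siRNA minus control siRNA) on the y axis. The 145 features called lower reach -1.84 and the 53 called higher reach 0.72, and the other features are grey.

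The number of calls depended on single arrays, and above all on the MASTL siRNA arrays, of which there were 2. Without 24 h MASTL siRNA replicate 3 there were 48 lower and 8 higher calls, and without MASTL siRNA replicate 1 there were 52 and 15. Without 24 h control replicate 1 the counts were 76 and 19. The higher calls also moved by more than 1.5 times without control replicate 2 of 24 h (27), or without control replicate 1 (33) or MASTL siRNA replicate 3 (33) of 48 h. In the fits with 1 MASTL siRNA array at 24 h, that array is assumed to vary like the other groups. With the replicate number as a block within each time, a fit in which 24 h control replicate 2 has no partner, 405 lower (1.81%) and 240 higher (1.07%) features were called, including 135 of the 145 and 45 of the 53. When the 5 arrays of 24 h were fitted alone, 54 lower and 4 higher features were called, including 46 of the 145 and 4 of the 53. In all 11 fits that left out 1 array each, 29 of the 123 genes with a fall and 2 of the 52 with a rise were called, and these are called stable below. The other 94 and 50 genes lost the call without at least 1 array, with adjusted p up to 0.358. All 175 genes kept their direction in each of these fits. This was fixed in advance, because their groups do not overlap at 24 h, and adds no support.

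Among cell cycle regulators, CDK6, the kinase that with D-type cyclins drives cells through G1, had one of the largest falls. Its log2 values were 10.52, 10.47 and 10.73 in controls and 8.92 and 9.39 with MASTL siRNA, a gap between groups wider than the distance between the MASTL siRNA arrays. The change was -1.42 ± 0.149 (SE), 2.67-fold, with an adjusted p of 0.00393 in limma, and it was stable. E2F3, a transcription factor of S-phase genes, fell by 0.71 on the log2 scale, but its call held in 7 of the 11 fits and was lost without MASTL siRNA replicate 1 (adjusted p 0.192) or 3 (0.0537) or control replicate 2 (0.071) of 24 h, or without MASTL siRNA replicate 3 of 48 h (0.0564). CDK6 and E2F3 were the called members among 21 tested G1 cyclins, CDKs and inhibitors, whose median change was -0.02. CCND1 and CCND3 were the brightest members of that list. With the replicate number as a block within each time, CCND1 was the 1 rise called, at 0.31 (adjusted p 0.0172), beside 4 falls.

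Genes of mitosis gave 0 calls among 36, although 30 of the 36 changes were negative and their median was -0.14, against 47.4% negative over all features. AURKA had the lowest value of that list, -0.74. The 2 brightest members were CDC20, an activator of the anaphase-promoting complex, with -0.12 (adjusted p 0.909), and UBE2C, the ubiquitin-conjugating enzyme that works with that complex, with -0.18 (0.903). DNA replication gave 0 calls among 31, with a median of 0.02. Its brightest members, ORC6 and MCM7, had changes of 0.21 (0.872) and -0.02 (0.974). The lowest value was -0.39, for TYMS, or -0.49 with the replicate number as a block within each time (adjusted p 0.0114). The 20 p53 targets also gave 0 calls. Among them CDKN1A, the CDK inhibitor p21, read 11.89, 12.17 and 12.14 in controls and 11.22 and 11.35 with MASTL siRNA. Its groups did not overlap, but its change of -0.78 had an SE of 0.433 over the 4 groups and an adjusted p of 0.692. With the replicate number as a block within each time it was called, at -0.73 (adjusted p 0.0372). Without the block, ZMAT3 had 0.32 (0.785). Histone genes gave 0 calls among 20, with H4C3 at -0.06 (0.968) and H2AZ1 at -0.14 (0.509).

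Several genes of the actin cytoskeleton and of membrane bending fell. PACSIN2, an F-BAR protein of caveolae and endocytosis, read 10.56, 10.74 and 10.60 in controls and 9.42 and 9.32 with MASTL siRNA. TPM4, a tropomyosin that covers actin filaments, read 9.23, 9.24 and 9.29 against 7.96 and 8.02. In both genes the groups lay more than a log2 unit apart, with changes of -1.27 ± 0.093 and -1.26 ± 0.089 (SE), 2.41-fold and 2.40-fold, each at an adjusted p of 0.000582, and both calls were stable. Second probes gave -1.03 for TPM4 (adjusted p 0.00242) and -0.41 for PACSIN2 (0.0592).

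CAPZA2, a subunit of the protein that caps actin filament ends, read 10.19, 10.11 and 10.13 in controls and 9.05 and 8.93 with MASTL siRNA. Its fall was 2.23-fold, and the call was lost without 24 h MASTL siRNA replicate 3 (adjusted p 0.0627). VCL, or vinculin, links integrin adhesions to actin, and it read 12.21, 12.30 and 12.09 against 11.33 and 11.16. Its 1.94-fold fall (adjusted p 0.0183) was called in 7 of 11 fits and lost without MASTL siRNA replicate 1 (0.112) or 3 (0.183) or control replicate 1 (0.0768) or 2 (0.0643) of 24 h. A second VCL probe changed by -0.56 (adjusted p 0.00265). TUBB6, a beta-tubulin, read 9.75, 9.52 and 9.68 against 8.80 and 8.89, and its 1.74-fold fall was stable, with -0.76 at a second probe (0.0292).

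MYH10, the heavy chain of non-muscle myosin IIB, changed by -0.61 ± 0.089 (SE), called in 6 of 11 fits, with the largest adjusted p, 0.174, without 24 h MASTL siRNA replicate 1. ASAP1, an ARF GTPase-activating protein with a BAR domain, changed by -0.92 (adjusted p up to 0.14, without 24 h MASTL siRNA replicate 1), and PTPN14, a phosphatase that restrains YAP, by -0.70 (up to 0.215, without 24 h MASTL siRNA replicate 3). A second PTPN14 probe changed by -0.11 (adjusted p 0.519), and other ASAP1 probes by -0.73 (0.0397) and -0.44 (0.024). ASAP1 and PTPN14 were the called members among 28 genes of the Hippo pathway, at a median of 0.01. PACSIN2 and ASAP1 were those among 36 BAR proteins and endocytic genes, also at 0.01.

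Smaller rises were found among actin-linked genes. CNN3, a calponin, rose 1.28-fold from 11.57, 11.65 and 11.66 to 11.90 and 12.06. FHL2, a LIM protein and target of the SRF pathway, rose 1.23-fold from 10.47, 10.54 and 10.48 to 10.77 and 10.83. TRIP6, a LIM protein of the zyxin family, rose 1.30-fold, and EVL, an actin regulator of the Ena/VASP family, changed by 0.32 on the log2 scale. None of the 4 was stable, and each had its largest adjusted p without 24 h MASTL siRNA replicate 3, at 0.135 for CNN3, 0.0912 for FHL2, 0.1 for TRIP6 and 0.102 for EVL. The lists thus held calls in both directions, with TPM4 down and CNN3 up among 20 tropomyosins, actins and their regulators (median 0.01), VCL down and FHL2 up among 19 MRTF and SRF genes (median 0.03), and VCL down and TRIP6 up among 30 adhesion genes (median -0.003).

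**Figure D2:**
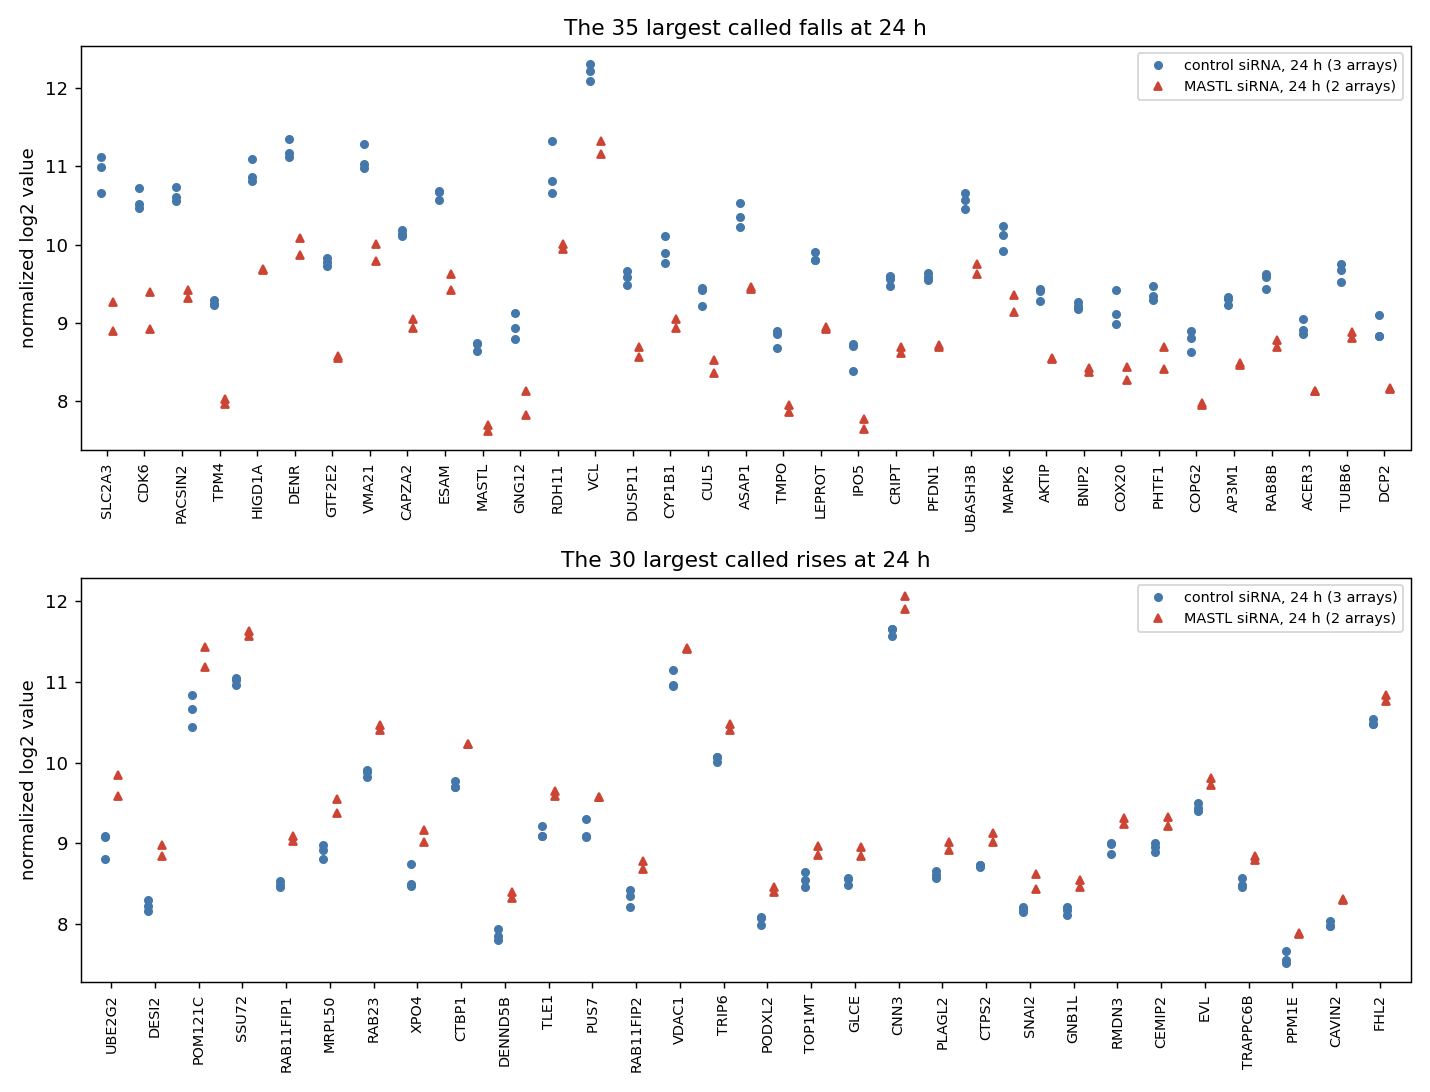
Normalised log2 values of single arrays at 24 h are shown for genes with large called falls and rises, with circles for the 3 control siRNA arrays and triangles for the 2 MASTL siRNA arrays. In each gene shown, both triangles lie on 1 side of all 3 circles, by more than a log2 unit for CDK6, PACSIN2 and TPM4 and by less for the rises.

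The largest fall of all was that of SLC2A3, the glucose transporter GLUT3. It read 11.12, 10.99 and 10.66 in controls and 9.27 and 8.90 with MASTL siRNA, and the lowest control lay more than a log2 unit above the higher MASTL siRNA array. The change was -1.84 ± 0.227 (SE), 3.58-fold, at an adjusted p of 0.00863, and without 24 h MASTL siRNA replicate 3 it was -1.65 with an adjusted p of 0.0961. SLC2A3 was the 1 called member among 24 genes of glucose transport and glycolysis, of which 17 had negative changes, with a median of -0.11. Hypoxia response genes gave 0 calls among 17, with 16 negative changes and a median of -0.08. The 2 brightest of them, NDRG1 and BNIP3, had -0.34 (adjusted p 0.911) and -0.14 (0.947), and control replicate 3 was the lowest control for both, at 11.80 against 12.53 and 12.88 for NDRG1.

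Of the mitochondrial genes, HIGD1A, a small inner-membrane protein that binds the respiratory chain, read 11.10, 10.87 and 10.81 in controls and 9.68 and 9.67 with MASTL siRNA. Its 2.38-fold fall was stable, and the other probes gave -0.83 and -0.73, each called. HIGD1A was the 1 called member among 41 genes of the respiratory chain and its assembly, whose median was 0.03. COX20, an assembly factor of cytochrome c oxidase, fell 1.77-fold, but the call was lost without 24 h MASTL siRNA replicate 1 (adjusted p 0.149) or 3 (0.0786).

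Mitochondrial genes also rose. MRPL50, a protein of the mitochondrial ribosome, read 8.80, 8.92 and 8.98 in controls and 9.37 and 9.55 with MASTL siRNA, a 1.48-fold rise that was lost without 24 h MASTL siRNA replicate 3 (adjusted p 0.0904). It was the 1 call among 68 mitochondrial ribosomal proteins, of which 55 had positive changes, with a median of 0.12. VDAC1, the channel of the outer membrane, rose 1.32-fold and TOP1MT, the mitochondrial topoisomerase, 1.29-fold. RMDN3, a tether between mitochondria and endoplasmic reticulum, rose 1.26-fold. These 3 calls were lost without more than 1 array each, with adjusted p up to 0.208, 0.319 and 0.142, all without 24 h MASTL siRNA replicate 3.

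Of the metabolic enzymes, CYP1B1, a cytochrome P450, read 9.90, 9.76 and 10.11 in controls and 9.05 and 8.93 with MASTL siRNA, a 1.91-fold fall with an adjusted p of 0.0537 without 24 h MASTL siRNA replicate 3. RDH11, a retinol dehydrogenase, fell 1.95-fold, but control replicate 2 stood apart at 11.32 against 10.81 and 10.66, and the call held in 2 of 11 fits, with an adjusted p up to 0.297 without 24 h MASTL siRNA replicate 3. ACER3, an alkaline ceramidase, fell 1.75-fold and held in 4 of 11 fits, with an adjusted p up to 0.278 without the same array. CTPS2, a CTP synthase, rose 1.27-fold in 6 of 11 fits, with an adjusted p up to 0.168 without it. Other probes above the noise limit on all 5 arrays gave -0.46 for RDH11 (adjusted p 0.0296), -0.13 for ACER3 (0.64) and 0.12 for CTPS2 (0.482).

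The general transcription machinery held one of the clearest falls. GTF2E2, the beta subunit of TFIIE, read 9.78, 9.73 and 9.82 in controls and 8.57 and 8.55 with MASTL siRNA. Arrays of each group lay within 0.1 log2 units of each other, and the change of -1.22 ± 0.055 (SE), 2.32-fold, had an adjusted p of 6.87e-05 and was stable. TAF7, a subunit of TFIID, read 8.59, 8.43 and 8.33 against 7.89 and 7.74, and its 1.55-fold fall was lost without 24 h MASTL siRNA replicate 3 (adjusted p 0.104). SSU72, which removes phosphates from the tail of RNA polymerase II, rose by 0.59 on the log2 scale, from 10.96, 11.05 and 11.02 to 11.57 and 11.63, a call lost without the same array (0.0645). These were the 3 calls among 32 general factors of RNA polymerase II, whose median change was 0.03.

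Among transcriptional regulators, CTBP1, a corepressor which binds repressors and recruits chromatin-modifying enzymes, read 9.70, 9.78 and 9.70 in controls and 10.23 and 10.23 with MASTL siRNA. The 1.42-fold rise, with an adjusted p of 0.000903, was 1 of the 2 stable rises, and other CTBP1 probes gave 0.18 (0.0194) and 0.10 (0.902). TLE1, a Groucho corepressor, rose 1.40-fold in 6 of 11 fits, with an adjusted p up to 0.192 without 24 h MASTL siRNA replicate 1. PLAGL2, a zinc finger transcription factor, rose 1.28-fold from 8.57, 8.61 and 8.66 to 8.92 and 9.02, with 0.0886 without 24 h MASTL siRNA replicate 3.

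Of genes that act in translation and RNA turnover, DENR, which with MCTS1 recycles ribosomes and helps reinitiation, read 11.17, 11.12 and 11.34 in controls and 9.86 and 10.08 with MASTL siRNA. Its 2.36-fold fall was stable, but a second DENR probe, at a mean of 8.34, gave 0.23 in the opposite direction (adjusted p 0.862), so the fall rests on the brighter probe. DENR was the 1 call among 35 translation factors, whose median was 0.04. DCP2, the enzyme that removes the cap of messenger RNAs, read 8.83, 8.83 and 9.10 against 8.16 and 8.16, a stable 1.69-fold fall. DUSP11, a phosphatase that acts on RNA 5′ ends, fell 1.93-fold, with an adjusted p of 0.0824 without 24 h MASTL siRNA replicate 3. SRSF6, a splicing factor of the SR family, fell 1.40-fold as the 1 call among 31 splicing factors, which had a median of 0.08, and its call held in 3 of 11 fits with an adjusted p up to 0.215 without 24 h MASTL siRNA replicate 1. PUS7, a pseudouridine synthase, rose 1.33-fold in 2 of 11 fits, with up to 0.273 without 24 h MASTL siRNA replicate 3.

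In protein folding, PFDN1, a subunit of prefoldin, which passes new actin and tubulin to the cytosolic chaperonin, read 9.64, 9.55 and 9.58 in controls and 8.70 and 8.72 with MASTL siRNA. The change of -0.88 ± 0.036 (SE), 1.84-fold, had the smallest adjusted p of the named genes at 24 h, 5.87e-05, and was stable. PFDN1 was the 1 call among 25 genes of chaperonin, prefoldin and other chaperones such as HSP90AA1 and HSPA8. Of the 25 changes, 19 were positive, with a median of 0.10. HYOU1, a chaperone of the endoplasmic reticulum, read 8.47, 8.42 and 8.35 against 7.95 and 7.93, a stable 1.39-fold fall with -0.47 at a second probe as well. It was the 1 call among 25 chaperones and folding enzymes of that organelle, at a median of -0.06. CUL5, a scaffold of cullin-RING ubiquitin ligases, read 9.21, 9.42 and 9.45 against 8.36 and 8.52, a stable 1.89-fold fall.

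The largest called rise was that of UBE2G2, which passes ubiquitin to misfolded proteins of the endoplasmic reticulum. It read 8.81, 9.07 and 9.09 in controls and 9.58 and 9.84 with MASTL siRNA, a 1.65-fold rise (adjusted p 0.0182) that was lost without 24 h MASTL siRNA replicate 3 (0.161). It was the 1 call among 23 ubiquitin-conjugating enzymes, at a median of 0.03. DESI2, named as a deSUMOylating isopeptidase, was the other stable rise. It read 8.30, 8.16 and 8.22 against 8.98 and 8.84, with a change of 0.68 ± 0.050 (SE), 1.61-fold, at an adjusted p of 0.000582. Proteasome genes gave 0 calls among 29, with PSMB1 at 0.01 (0.992) and PSMB6 at -0.03 (0.963).

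At the nuclear envelope, TMPO, a lamina-associated protein, read 8.90, 8.67 and 8.85 in controls and 7.86 and 7.95 with MASTL siRNA, a stable 1.88-fold fall with -0.26 at a second probe (adjusted p 0.0785). IPO5, an importin, fell 1.86-fold, with 0.063 without 24 h MASTL siRNA replicate 1. The nuclear pore protein POM121C rose 1.58-fold and the exportin XPO4 1.43-fold. POM121C read 10.45, 10.66 and 10.84 in controls and 11.19 and 11.43 with MASTL siRNA, so that the controls were spread more widely than the gap between groups. Both rises were called in 1 of 11 fits, with adjusted p up to 0.358 and 0.34 without 24 h MASTL siRNA replicate 3. These were the 3 calls among 47 nuclear pore and transport genes, of which 38 had positive changes, at a median of 0.06.

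In membrane traffic, VMA21, the assembly chaperone of the vacuolar proton pump, read 10.98, 11.03 and 11.29 in controls and 9.78 and 10.01 with MASTL siRNA. Its 2.30-fold fall was stable, and it was the 1 call among 16 genes of the pump and its assembly, at a median of -0.06. AP3M1, the mu subunit of the AP-3 adaptor for lysosomal cargo, read 9.32, 9.23 and 9.31 against 8.47 and 8.48, with a stable 1.76-fold fall at an adjusted p of 0.000128 and -0.62 at a second probe (0.00368). It was the 1 call among 34 coat and adaptor genes, at a median of -0.02. COPG2, a coatomer subunit, was called outside that list and fell 1.76-fold, from 8.81, 8.63 and 8.90 to 7.97 and 7.96.

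LEPROT, an endosomal membrane protein encoded with the leptin receptor gene, read 9.80, 9.91 and 9.80 against 8.92 and 8.94, a 1.87-fold fall. AKTIP, part of a complex that ties vesicles to dynein, read 9.43, 9.28 and 9.41 against 8.54 and 8.53, a 1.78-fold fall with an adjusted p of 0.000311. The falls of COPG2, LEPROT and AKTIP were all stable.

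RAB GTPases and RAB11 effectors, of which 39 were tested at a median of -0.002, held 3 rises and 1 fall. RAB8B, which acts in transport to the cell surface, read 9.59, 9.43 and 9.62 in controls and 8.78 and 8.69 with MASTL siRNA, a 1.75-fold fall called in 4 of 11 fits. RAB11FIP1, a RAB11 effector of endosome recycling, rose 1.49-fold from 8.53, 8.48 and 8.45 to 9.03 and 9.09. RAB23, known for a role in Hedgehog signalling and cilia, rose 1.48-fold from 9.91, 9.88 and 9.82 to 10.40 and 10.47. The second RAB11 effector, RAB11FIP2, rose 1.33-fold, with 0.24 at another probe (adjusted p 0.00845). Without 24 h MASTL siRNA replicate 3 the adjusted p was 0.239 for RAB8B, 0.185 for RAB11FIP1 and 0.257 for RAB23, and without replicate 1 it was 0.256 for RAB11FIP2. A second RAB11FIP1 probe at 7.49, near the noise limit, gave -0.001. DENND5B, an exchange factor for RAB GTPases, rose 1.41-fold (adjusted p up to 0.115). TRAPPC6B, a subunit of the TRAPP tethering complex, rose 1.24-fold (up to 0.149). Both largest adjusted p values were without 24 h MASTL siRNA replicate 3. Other TRAPPC6B probes gave 0.22 (adjusted p 0.0785) and 0.001 (0.998).

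Other genes with large falls are known from signalling or the cell surface. ESAM, an adhesion molecule named for endothelial cells, read 10.68, 10.67 and 10.56 in controls and 9.62 and 9.42 with MASTL siRNA. Its 2.17-fold fall was called in 8 of 11 fits, with an adjusted p up to 0.129 without 24 h MASTL siRNA replicate 3, and of the 3 endothelial markers CDH5 and VWF were above the noise limit on no array and PECAM1 on all 5. Their part in this result was not tested. GNG12, a gamma subunit of G proteins, fell 1.96-fold in 9 of 11 fits, with 0.145 without 24 h MASTL siRNA replicate 1. MAPK6, the atypical kinase ERK3, fell 1.80-fold in 2 of 11 fits, with up to 0.305 without the same array. UBASH3B, a tyrosine phosphatase of receptor signalling, fell 1.84-fold in 10 of 11 fits, with 0.0627 without 24 h MASTL siRNA replicate 3.

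BNIP2, a BCL2-interacting protein, fell 1.77-fold (up to 0.0778, without 24 h MASTL siRNA replicate 3), CRIPT 1.85-fold (up to 0.119, without replicate 1) and PHTF1 1.76-fold (up to 0.222, without replicate 1).

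Several smaller rises concerned the cell surface and its matrix. GLCE, an epimerase of heparan sulphate synthesis, rose 1.28-fold, PODXL2, or endoglycan, 1.30-fold, and CEMIP2, a hyaluronan-binding surface protein, by 0.32 on the log2 scale. CAVIN2, a coat protein of caveolae, rose 1.23-fold and PPM1E, a phosphatase of CaM kinases, 1.23-fold, and GNB1L rose 1.26-fold. SNAI2, the transcription factor Slug, rose 1.27-fold from 8.20, 8.18 and 8.15 to 8.43 and 8.61, and it was the 1 call among 17 EMT regulators and markers, at a median of -0.04. With the replicate block within each time SNAI2 missed the threshold (adjusted p 0.0509). A second SNAI2 probe changed by 0.09 (adjusted p 0.384). None of these 7 was stable. Their largest adjusted p was 0.26 for GLCE and 0.149 for CEMIP2, without 24 h MASTL siRNA replicate 1, and, without replicate 3, 0.276 for PODXL2, 0.257 for CAVIN2, 0.151 for PPM1E, 0.247 for GNB1L and 0.0627 for SNAI2.

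Of the 29 stable falls, 11 were not reached by the rule for naming, by size or by list, and are given here after their values were seen. SNX17, a sorting nexin that recycles integrins and LDL receptors from endosomes, read 10.30, 10.25 and 10.22 in controls and 9.56 and 9.45 with MASTL siRNA, a 1.69-fold fall. RAP2A, a small GTPase, read 8.96, 9.02 and 8.85 against 8.19 and 8.18, a 1.68-fold fall. CWC27, a spliceosomal cyclophilin, fell 1.57-fold, UBQLN2, a shuttle to the proteasome, 1.46-fold, and HADHB, the beta subunit of the mitochondrial trifunctional protein of fatty acid oxidation, 1.42-fold. CLINT1, a clathrin adaptor of the epsin family, fell 1.41-fold, CHRAC1, a histone-fold subunit of the CHRAC chromatin remodeller, 1.36-fold, and WDR41, a partner of C9orf72, 1.35-fold. The remaining C8orf33, TMEM64 and VOPP1 fell 1.42-, 1.42- and 1.30-fold. All 29 stable falls were called at 48 h too, beside 136 of all 145 features called lower and 1.29% of all features tested. The fits that defined them took their spread from the 48 h arrays as well. When the 5 arrays of 24 h were fitted alone, 19 of the 29 were called, beside 46 of the 145.

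For 44 of the genes with a fall, a second probe exceeded the noise limit on each of the 5 arrays. Of their 49 other probes, 46 had the same sign and 23 were called as features of their own, with a median of -0.30 against -0.63 for the probes used. The 3 exceptions were at DENR, RAB3IP and QTMAN, of which RAB3IP and QTMAN are named for this disagreement alone. QTMAN missed the threshold with the replicate block within each time (adjusted p 0.0597). For rises, 16 of 17 other probes of 13 genes had the same sign, RAB11FIP1 being the exception, and 2 were called, with a median of 0.12 against 0.35. Probes used were the brightest of their gene. Of the features called lower, 22 had no single gene symbol in the annotation used here. Probe ILMN_1752046 read 10.41, 10.52 and 10.45 in controls and 9.04 and 8.95 with MASTL siRNA, a 2.76-fold fall, and ILMN_1666384 fell 2.33-fold.

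In the remaining lists few or no genes passed the limma test. At an unadjusted p under 0.05, where 2021 of 22329 features lay, the 19 lists with 0 calls had 5 of 36 genes for mitosis, 1 of 31 for DNA replication, 2 of 20 for p53 targets and 2 of 20 for histones. Immediate early genes had 4 of 29, the RNA interference machinery 5 of 17 and ERBB genes 4 of 14. Hypoxia, cholesterol and fatty acid synthesis, NF-kB and the aminoacyl-tRNA synthetases had 1 each, and ATF4, NRF2, proteasome and reference genes 0. Among the cell type lists there were 2 of 14 for MDA-MB-231, 1 of 10 for leukocytes and endothelium and 0 for the luminal and fibroblast lists.

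Cholesterol and fatty acid synthesis had the lowest median of all 42 lists, -0.26, with 22 of 24 changes negative and 0 calls. The brightest members, SCD and FASN, had -0.43 (adjusted p 0.814) and -0.28 (0.903), and in both control replicate 2 stood well above the other controls, at 13.45 against 12.48 and 12.24 for SCD and at 12.29 against 11.02 and 11.09 for FASN. The MASTL siRNA values were 12.45 and 12.14 for SCD, the lower of them below all controls, and 11.18 and 11.18 for FASN, between the other controls and replicate 2. With the replicate block within each time, where control replicate 2 has no partner, SCD changed by -0.07 (adjusted p 0.383) and FASN by 0.13 (0.452). In that fit INSIG1 was the 1 call of the list, at -0.25 (adjusted p 0.035). At 48 h the median of this list was -0.03.

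Inflammatory genes of the NF-kB pathway gave 0 calls among 28, with 25 negative changes and a median of -0.06, led in brightness by PLAU at -0.22 (0.864) and CXCL8 at -0.51 (0.913). The interferon response had 1 call among 35 at a median of -0.10, TLR3, a receptor of double-stranded RNA. It read 7.54, 7.53 and 7.54 in controls and 7.41 and 7.41 with MASTL siRNA, at the noise limit, and its 1.09-fold fall held in 2 of 11 fits, with up to 0.21 without 24 h MASTL siRNA replicate 3. TLR3 missed the threshold with the replicate block within each time as well (0.0832). Immediate early genes and MYC gave 0 calls among 29, at a median of -0.09, with IER3 at -0.32 (0.52, and 0.0262 with the block) and KLF6 at 0.11 (0.889). ATF4 and amino acid stress genes gave 0 among 25, at -0.04, with ATF4 at -0.24 (0.589) and CEBPB at -0.25 (0.791).

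NRF2 targets gave 0 calls among 18, at a median of 0.05, with FTL at 0.04 (adjusted p 0.889) and TXN at 0.10 (0.95). Aminoacyl-tRNA synthetases gave 0 among 18, at 0.09, with FARSB at 0.28 (0.864) and QARS1 at 0.14 (0.785). ERBB receptors and ligands gave 0 among 14, at -0.02, with ERRFI1 at -0.11 (0.967) and SHC1 at -0.08 (0.933). The RNA interference machinery gave 0 among 17, at 0.02, with HSP90AA1 at 0.16 (0.537) and CNOT1 at 0.05 (0.94), and its lowest value was -0.72, for DICER1.

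Reference genes gave 0 calls among 13, at -0.06, with ACTB at -0.03 (0.885) and GAPDH at -0.12 (0.899). Of the cell type lists, none held a call. The medians were 0.02 for 14 MDA-MB-231 genes (VIM -0.06, adjusted p 0.947, and CAV1 0.14, 0.795), -0.02 for 10 luminal genes (MLPH -0.22, 0.858, and XBP1 -0.23, 0.88), -0.04 for 10 leukocyte and endothelial genes (CD14 -0.28, 0.689, and CSF1R -0.31, 0.381, and 0.0308 with the replicate block within each time) and -0.01 for 7 fibroblast genes (COL1A1 0.01, 0.967, and COL1A2 -0.01, 0.97).

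Several of these counts were higher with the replicate number as a block within each time, and the members below are named for that, after their values were seen. Mitosis then had 8 falls among its 36 genes and 0 rises. They were AURKA (-0.81), the mitotic kinase Aurora A, ANLN (-0.62), the scaffold anillin of the cleavage furrow, RACGAP1 (-0.58) and ECT2 (-0.38), which act in cytokinesis, CCNA2 (-0.36), CENPA (-0.35), CDCA8 (-0.35) and NEK2 (-0.21). Without the block, AURKA changed by -0.74, ANLN by -0.52, RACGAP1 by -0.47 and ECT2 by -0.37. CCNA2 changed by -0.20, CENPA by -0.30, CDCA8 by -0.17 and NEK2 by -0.11, and 0 of the 8 were called. With the block, the MRTF and SRF list had 4 rises, SRF (0.47), CCN1 (0.46), CCN2 (0.56) and FHL2 (0.32), and still VCL as its 1 fall. Without it, limma gave SRF 0.28 (adjusted p 0.736), CCN1 0.11 (0.966), CCN2 0.36 (0.634) and FHL2 0.30 (0.00792). In the Hippo list, the block fit called CCN1, CCN2, TEAD2 (0.38) and ANKRD1 (0.28) higher beside the falls of PTPN14 and ASAP1. Without the block, limma gave TEAD2 0.26 (adjusted p 0.631) and ANKRD1 0.30 (0.736).

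With the block, the adhesion list had 3 rises and 2 falls, the G1 list 1 and 4, and the RAB list 4 and 3. Rises and falls were 3 and 0 for the mitochondrial ribosome, 3 and 2 for RNA polymerase II factors, 2 and 2 for the nuclear pore, and 1 and 2 for both the vacuolar pump and the chaperones of the endoplasmic reticulum. Ubiquitin-conjugating enzymes, glucose genes, the list of chaperonin, prefoldin and other chaperones, and splicing factors had 1 of each. Translation factors and coats had 2 falls. The interferon list had 3 falls, NF-kB 2, and DNA replication, ATF4, RNA interference, hypoxia, cholesterol, immediate early, p53, MDA-MB-231 and leukocyte and endothelial lists 1 each, with 0 rises in all of these. The histone, ERBB, NRF2, aminoacyl-tRNA synthetase, proteasome, reference, luminal and fibroblast lists kept 0 calls. Over all features this fit called 1.81% lower and 1.07% higher, and it was not repeated with arrays left out.

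**Figure D3:**
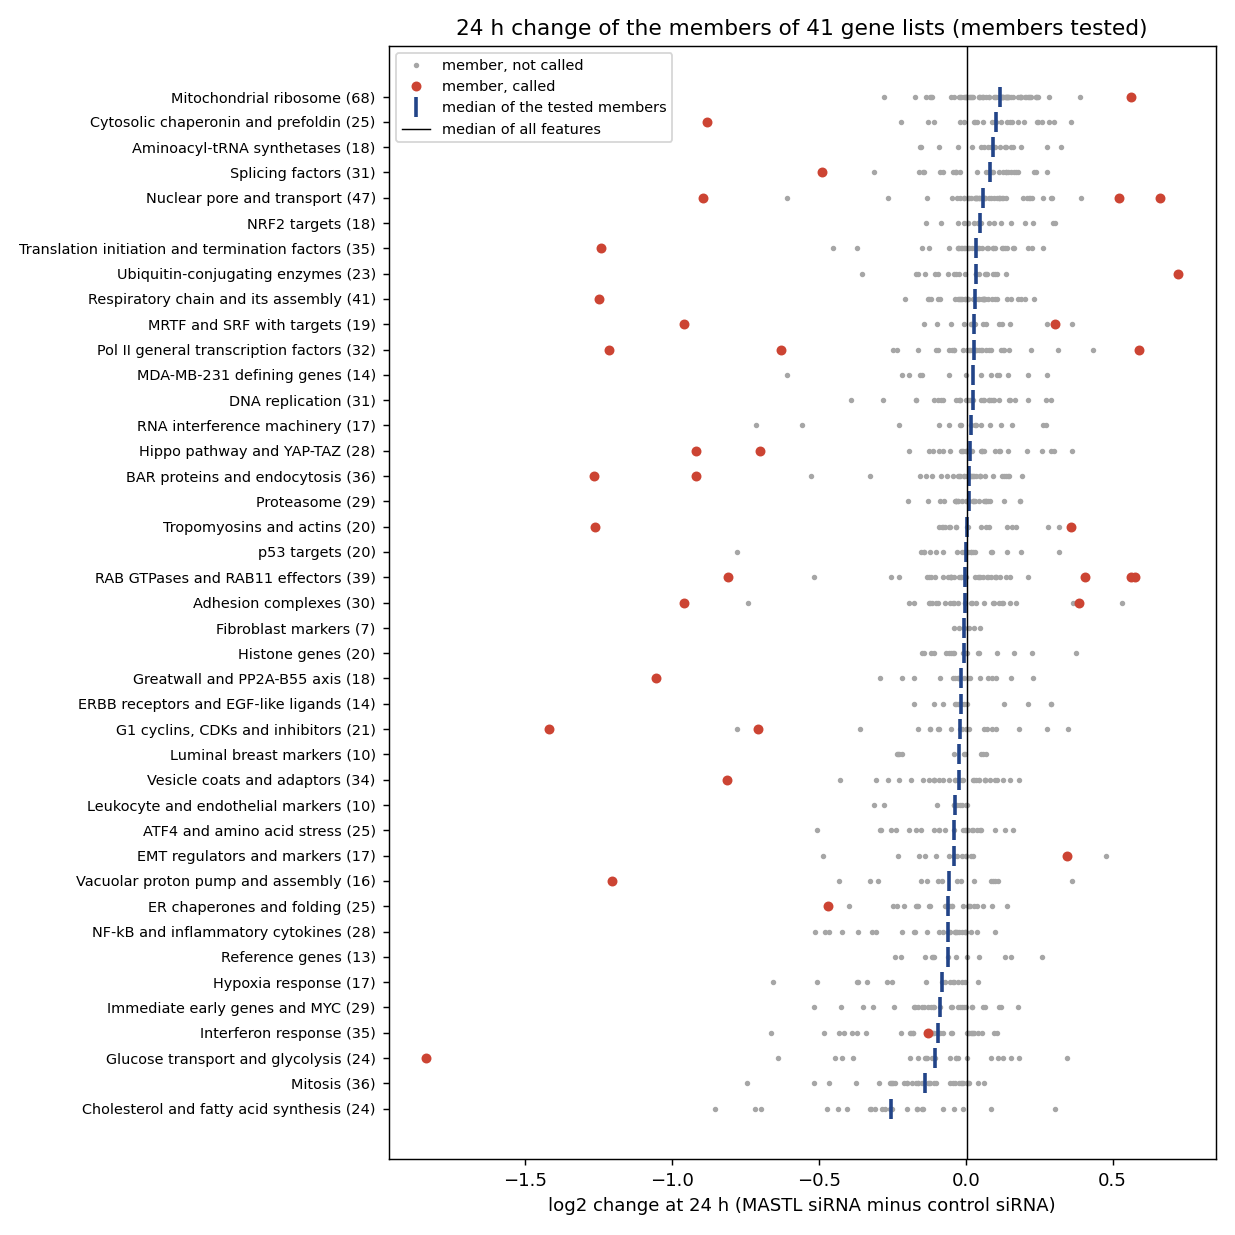
Each row is one of the gene lists with the number of members tested, each point a member's log2 change at 24 h, red where called, and the blue bar the median of the list. Medians run from -0.26 for cholesterol and fatty acid synthesis to 0.12 for the mitochondrial ribosome, around 0.003 for all features, and called members run from -1.84 for SLC2A3 to 0.72 for UBE2G2.

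The 48 h arrays showed whether the early calls were seen again in other samples, given the same siRNA. Replicate numbers 1 and 3 occur at both times, and the labels do not say whether cultures were shared. The 24 h and 48 h comparisons share no control array, though the estimate of the spread comes from all 11. A 24 h call therefore favours features with a small spread at 48 h too. The shares over all features given below are not matched for spread or size of change. All 145 falls and all 53 rises kept their sign at 48 h, where 62.5% of all features with a negative and 63.4% of those with a positive 24 h change did so. At 48 h, 136 of the 145 falls (93.8%) and 40 of the 53 rises (75.5%) were called again, beside 1.29% of all features called lower and 1.03% called higher at that time. With the replicate block within each time, 140 and 45 were called at 48 h, where that fit called 1301 features lower (5.83%) and 1399 higher (6.27%). All 3 MASTL siRNA arrays of 48 h lay beyond all 3 controls for 145 of the 145 falls and 49 of the 53 rises, beside 8.51% and 10.1% of all features.

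The sizes were close at both times, among features selected by their 24 h call, which by itself favours a larger value at 24 h. The median of the falls was -0.59 at 24 h and -0.53 at 48 h, that of the rises 0.31 and 0.30, and the change was the smaller at 48 h for 102 falls and 33 rises. At 48 h, SLC2A3 changed by -2.22, GTF2E2 by -1.33, CDK6 by -1.27, PACSIN2 by -1.08 and MASTL by -0.93, each called. Read the other way, 136 of the 287 falls called at 48 h (47.4%) and 40 of the 229 rises (17.5%) were called at 24 h. Selection at 48 h likewise favours larger values at that time. Of those 48 h calls, 283 falls and 221 rises had the same sign at 24 h already, with 24 h medians of -0.38 and 0.21 against 48 h medians of -0.43 and 0.33.

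**Figure D4:**
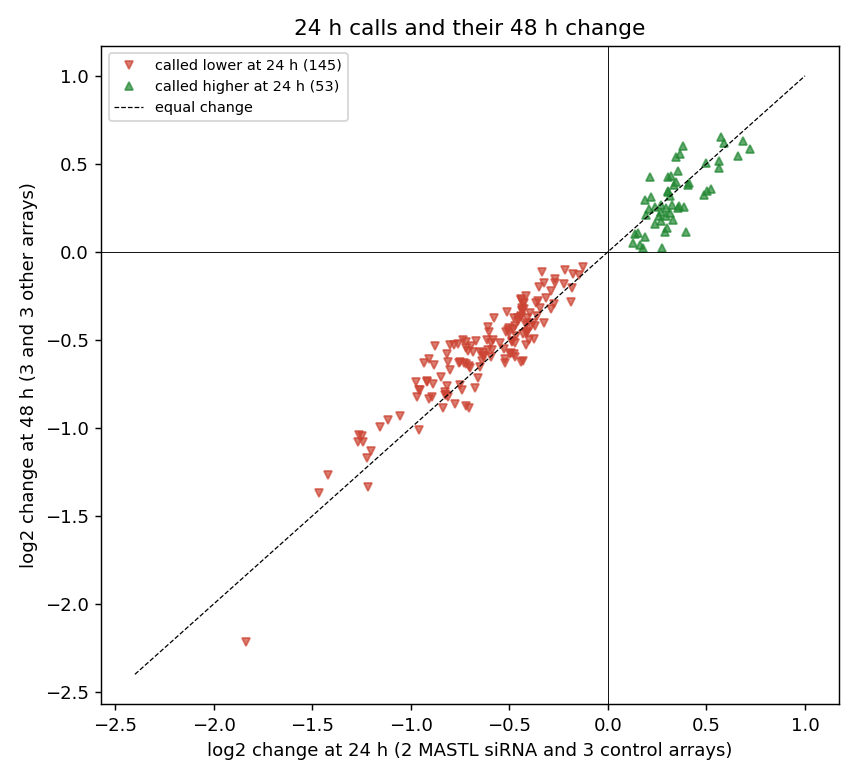
Log2 change at 24 h (x axis, 2 MASTL siRNA and 3 control arrays) is plotted against that at 48 h (y axis, 3 and 3 other arrays), with the dashed line marking equal change. All 145 features called lower at 24 h lie below 0 at 48 h and all 53 called higher lie above it.

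In the test of the 48 h change minus the 24 h change, 0 features passed in limma, the smallest adjusted p being 0.233, and 681 had an unadjusted p under 0.05, among them 12 of the falls and 14 of the rises called at 24 h. With a prior that follows intensity and is robust, 1 feature passed, SCG2 (0.19 at 24 h and 0.71 at 48 h), which was not a 24 h call. With the replicate block within each time 0 passed (smallest adjusted p 0.076, and 2136 at an unadjusted p under 0.05). No gene is therefore called early or late here. The 6 genes called at 24 h with the smallest unadjusted p, all at an adjusted p of 1.00, were PFDN1, GNG5, RDH13, TOMM70, LEPROT and RAB40B. PFDN1 changed by -0.88 at 24 h and -0.64 at 48 h, and LEPROT by -0.91 and -0.61. TOMM70, an import receptor of the mitochondrial outer membrane, changed by 0.27 and 0.02, and RDH13, a mitochondrial retinol dehydrogenase, by 0.18 and 0.02. GNG5, a G protein gamma subunit, changed by 0.21 and 0.43, and RAB40B, a RAB GTPase outside the list above, by 0.19 and 0.30. At 24 h these last 4 held in 2 (TOMM70), 6 (RDH13), 2 (GNG5) and 9 (RAB40B) of the 11 fits, with adjusted p up to 0.297, 0.174, 0.272 and 0.0858, without 24 h MASTL siRNA replicate 1 for RDH13 and without replicate 3 for the others.

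Some of the largest 48 h changes were small or uncertain at 24 h, and these genes are named after their values were seen. TCN1, the transcobalamin I gene, had the largest 48 h rise, 1.23, and read 7.67, 7.97 and 7.57 in 24 h controls and 7.85 and 7.75 with MASTL siRNA, a change of 0.06 (adjusted p 0.967). PAPPA, a protease of IGF-binding proteins, changed by 0.79 at 24 h (0.164) and 1.10 at 48 h, and ACTG2, a smooth muscle actin, by 0.28 (0.411) and 0.82. Without a call at 24 h, 43 features had a fall of at least 1.5-fold in value and 6 a rise. The lowest of these was KYNU, kynureninase, with -1.16 at 24 h (0.106) and -1.53 at 48 h (0.0118). ACVR1, a BMP receptor, stood just outside the threshold with -0.86 (0.0509). INSIG1, a sterol-regulated inhibitor of SREBP processing, had -0.85 (0.689) with a control SD of 1.06 (n = 3). With the replicate block within each time its fall was smaller, -0.25, and was called (adjusted p 0.035).

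**Figure D5:**
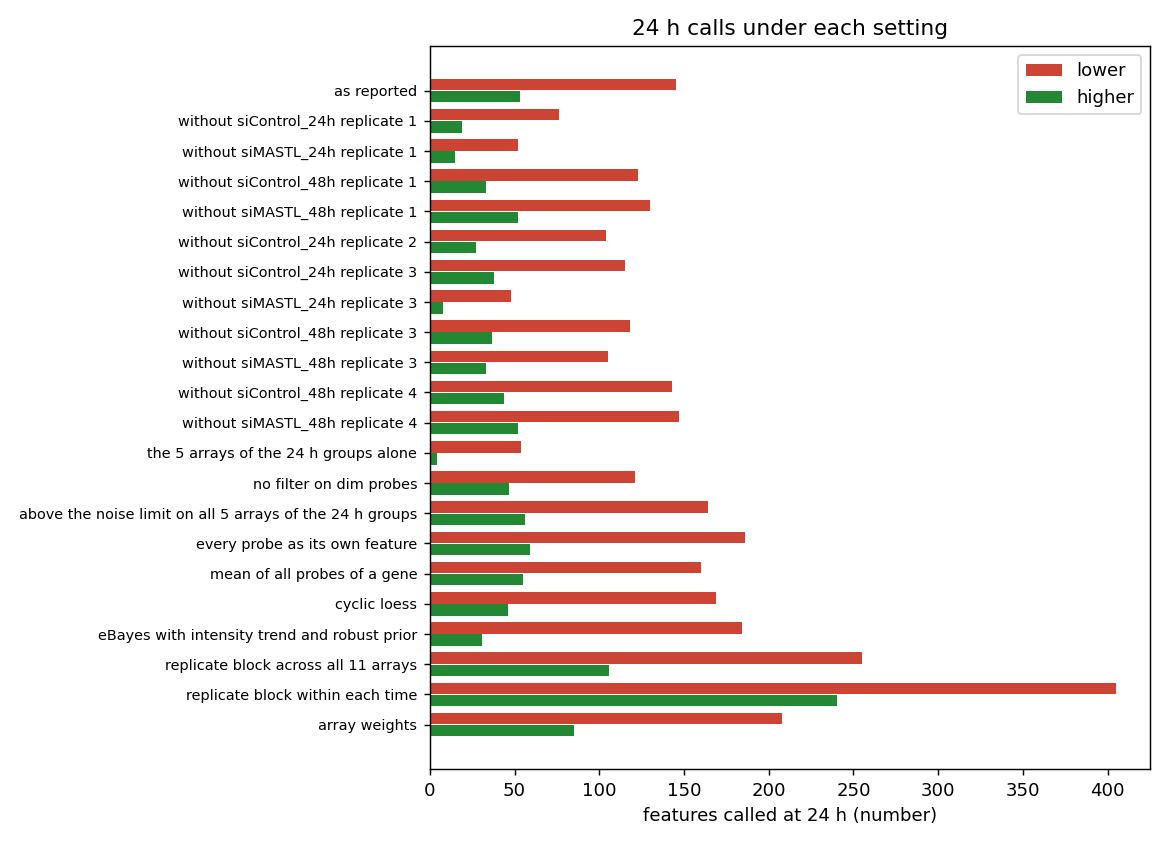
Bars give the number of features called lower (red) and higher (green) at 24 h as reported and under each other setting or with 1 array left out. Lower calls range from 48 without 24 h MASTL siRNA replicate 3 to 405 with the replicate block within each time, and they outnumber higher calls in each setting.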

How the data were processed

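RNA of 11 MDA-MB-231 samples was measured on 1-colour Illumina bead arrays. The values used were log2 values deposited by the authors. The submitters' processing notes name lumi, with no version or role, and the kind of log transform (plain or variance-stabilizing) is not given in the sources used here. The arrays share 1 set of sorted values (largest difference 0.000698), so changes are relative to the whole array. A second deposited table with 11 signal and 11 detection p-value columns, whose names match no label, was not used, although the design had allowed for it.

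Noise was centred on the most common value, and the values below it, mirrored, gave the limit as their 95th percentile. Probes above it on at least 2 arrays (27539) were kept. Symbols came from the platform annotation (1 symbol for 30113 probes, several for 8, none for 17200), with 30074 updated through Entrez numbers. This gave 22329 features, 14096 of them genes with 1 symbol. limma 3.58.1 (lmFit, eBayes; R 4.3.3) fitted 4 group means over the 11 arrays (7 residual degrees of freedom, 1.67 added by moderation), with a two-sided Benjamini-Hochberg threshold of 0.05 over all features. Same-numbered arrays deviated from their group means together (correlation over features 0.104 and 0.47 at 24 h, and 0.692, 0.549 and 0.772 at 48 h). All 5 pairs exceeded 0.1, so the numbers were taken to pair arrays within a time, on the values and not the labels. At 24 h the values alone do not settle this pairing. Control replicate 2 and MASTL siRNA replicate 1 of 24 h, with unlike numbers, stood at 0.33. The 2 MASTL siRNA arrays of 24 h necessarily mirror each other (-1.0). The counts of list calls with the block within each time are given, and its values for some of the genes named. The script was tested on simulated data. The number of arrays limits the precision. Figures used matplotlib 3.10.9 in Python 3.11.15. RefSeq microRNAs were compared with the siRNA seed.

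The genes named are MASTL, the 35 largest falls and 30 largest rises among called genes whose groups do not overlap, called members of the 42 lists (1180 entries, 1139 genes, 1067 entries tested; 23 lists with a call and 19 without), the 2 brightest members of other lists, and 6 genes by the difference between times. Others are marked as chosen after their values were seen. The samples compared, the lists and the tests were chosen with earlier results of these data known, and the lists are described by counts and medians only. The result of 1 list is not reported here. Alternatives were other filters, probe rules, a cyclic loess, another prior, array weights, the replicate number as a block, the 24 h arrays alone and each array left out.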

Additional observations from a re-analysis of the deposited data

How the results depend on the processing

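The direction of all 175 named calls was kept in all 3674 values under the alternatives, and 2674 of these were still called. As the groups do not overlap, direction was fixed in advance with an array left out, the 24 h arrays alone or a block. Of 796 values of 38 named genes without a call, 28 changed sign and 4 became calls, all with a replicate block (CDKN1A and IER3 with 1 form of it, CSF1R with both). Against 145 falls and 53 rises, the 24 h arrays alone gave 54 and 4, array weights 208 and 85, the intensity-trended robust prior 184 and 31, and cyclic loess, which put the median of all features at -0.00056, 169 and 46. With 1 array left out, falls ranged from 48 to 147 and rises from 8 to 52. The cause of these differences was not tested. Filters and probe rules gave 121 to 186 falls and 47 to 59 rises. The share of calls with the same sign at 48 h was 99.3% to 100% where recomputed.

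With the replicate block across all 11 arrays 255 falls and 106 rises were called, including 127 and 36 of those reported, and with the block within each time 405 and 240, including 135 and 45. Of the genes named, CAVIN2, CTPS2, E2F3, PODXL2, POM121C, PPM1E, PUS7, RDH13 and SRSF6 lost the call with the block across all arrays alone (adjusted p 0.0507 for E2F3 to 0.0789 for PODXL2), and QTMAN, SNAI2 and TLR3 with both. Changes of genes near the noise limit, such as TLR3 and MASTL with siRNA, may be understated, which was not tested.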
